A study of Mus musculus with 8 samples.

Results

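The genes described here are 10 markers of mural cells, the cells that wrap small blood vessels, among them Mcam, which encodes the adhesion molecule CD146 and also serves as a marker of tendon stem cells. They are the genes of the deposited count table with the symbols Mcam, Rgs4, Rgs5, Cspg4, Notch3, Anpep, Kcnj8, Abcc9, Steap4 and Gja4, and all 10 were found among its 24982 genes. RNA sequencing was run on 8 libraries from C57Bl/6 mice, made from fibroblasts of the tail tendon kept in culture. In 4 of them (replicates 2, 3, 5 and 6) the genotype is Scx+, and in the other 4 (replicates 2, 3, 4 and 5) it is Scx-, which means that the gene of the tendon transcription factor scleraxis was deleted. All 8 samples, controls included, received 4HT, the tamoxifen metabolite commonly used to switch on an inducible Cre recombinase. The sources used here do not give the driver of the deletion, the age of the mice, or whether each library had its own animal or culture. The tests below therefore measure the spread between libraries, which may be technical.

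Mural cells comprise the pericytes of capillaries and the smooth muscle cells of larger vessels. Endothelial cells recruit them through PDGF-B and its receptor, and signals from Jagged ligands to Notch3 help to keep their identity. Perivascular cells of tendon have been proposed as a source of stem or progenitor cells, which is why markers such as Mcam and Cspg4 are often read in tendon cultures. Most of these genes are not exclusive to mural cells: fibroblasts in culture can also express Cspg4, Anpep and Mcam. RNA from bulk samples cannot tell fewer cells of a type from less RNA per cell, and this holds for every difference below.

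The libraries held 17343228 to 25180790 gene counts. Scx fell from 7.92 ± 1.52 to 0.112 ± 0.0461 CPM (CPM are counts scaled to library size, here with TMM factors; SD, n = 4 each), so the labels and the targeted gene match in all 8 libraries. The collagen gene Col1a1 stood at 3921 ± 507 and 2702 ± 173 CPM and the tenomodulin gene Tnmd at 6.93 ± 0.972 and 2.63 ± 0.274 CPM, while Kera, another tendon marker, had 0 counts. On the second principal component, which took 12.9% of the variance, Scx-positive 5 lay away from the rest of its group. Of 13125 genes tested, 28.5% were called, meaning a Benjamini-Hochberg adjusted p under 0.05 in the quasi-likelihood test of edgeR, 14% as higher and 14.5% as lower in Scx-deleted cells. The median log2 change over all genes tested was -0.01, and the groups did not overlap in 29.1% of them.

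The sequences before the transcription start are shown for Rgs4, Rgs5 and Anpep, whose RNA was lower in Scx-deleted cells, and for Cspg4, the member whose RNA was higher. Scleraxis is a basic helix-loop-helix protein, a class that binds E-boxes, hexamers of the form CANNTG. Both strands were covered, since CANNTG reads the same on each. Capitals mark each E-box. The sequences are from RefSeq on GRCm38.p6 and run in the direction of the gene. Rgs4 lies on the minus strand (chr1:169747643-169747892), Rgs5 on the plus strand (chr1:169655251-169655500), Anpep on the minus strand (chr7:79848211-79848460, before the RefSeq start, which lies inside the longer GENCODE gene) and Cspg4 on the plus strand (chr9:56864854-56865032, ended where the annotated untranslated region begins).
Rgs4: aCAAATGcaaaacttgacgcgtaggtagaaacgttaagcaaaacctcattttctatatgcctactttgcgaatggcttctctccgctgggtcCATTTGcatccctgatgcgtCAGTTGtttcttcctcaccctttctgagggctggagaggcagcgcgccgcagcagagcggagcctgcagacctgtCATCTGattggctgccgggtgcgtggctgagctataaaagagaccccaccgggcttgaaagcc
Rgs5: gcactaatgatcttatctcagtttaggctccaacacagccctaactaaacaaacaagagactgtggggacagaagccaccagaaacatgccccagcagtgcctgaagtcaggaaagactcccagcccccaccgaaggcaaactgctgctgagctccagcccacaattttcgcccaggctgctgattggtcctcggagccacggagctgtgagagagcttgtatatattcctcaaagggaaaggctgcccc
Anpep: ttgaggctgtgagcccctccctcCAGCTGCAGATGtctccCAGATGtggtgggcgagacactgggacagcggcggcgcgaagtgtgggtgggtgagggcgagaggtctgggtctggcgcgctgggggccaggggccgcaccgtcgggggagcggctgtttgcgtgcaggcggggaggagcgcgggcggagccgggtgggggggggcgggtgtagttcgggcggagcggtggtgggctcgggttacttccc
Cspg4: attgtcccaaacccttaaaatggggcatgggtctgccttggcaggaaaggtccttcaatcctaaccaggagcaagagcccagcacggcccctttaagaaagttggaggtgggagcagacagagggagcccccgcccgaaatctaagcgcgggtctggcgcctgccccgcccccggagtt

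Over the 250 bases before the RefSeq start, Rgs4 had 4 E-boxes, Anpep 3, and Rgs5, Cspg4, Notch3 and Gja4 had 0. Annotated untranslated regions took up 189 of these bases for Mcam, 71 for Cspg4, 41 for Abcc9 and 15 for Steap4. The only E-box of Abcc9, 27 bases before the RefSeq start, lay in that part and is counted below. Of 10 member windows 6 held CANNTG, against 66.2% of the 32851 RefSeq promoter windows of this length. The E-box CAGATG, searched on both strands (CATCTG on the other) and itself a form of CANNTG, was found in 4 member windows, against 14.4% of all windows. They were Rgs4 (63 bases before the start), Anpep (221 and 210 bases before it), Kcnj8 (160) and Steap4 (185). A matching hexamer is only a match of letters, and the absence of one says only that it is not in this window.

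Mcam, which encodes a cell adhesion receptor of the immunoglobulin superfamily, did not differ between the groups beyond the spread of the libraries. The Scx-positive libraries 2, 3, 5 and 6 stood at 22.5, 28.3, 29.6 and 25.0 CPM, and the Scx-deleted libraries 2, 3, 4 and 5 at 30.9, 23.6, 29.8 and 24.8 CPM. The groups overlapped over most of their range, and the lowest library of all was Scx-positive 2 and the highest Scx-deleted 2. The means were 26.3 ± 3.21 and 27.3 ± 3.60 CPM (SD, n = 4 each), and the log2 change was 0.05 ± 0.10 (SE; adjusted p = 0.752). Its 95% interval ran from -0.16 to 0.25, which holds small changes in either direction. The sign of this estimate changed when Scx-positive 2 (-0.02) or Scx-deleted 2 (-0.02) was left out. Mcam (ENSMUSG00000032135.15) lies on the plus strand of chromosome 9, from 44134469 to 44142727 of GRCm38, and 17 of its 3350 exonic bases overlap an exon of Gm10687 on the other strand.

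**Figure D1:**
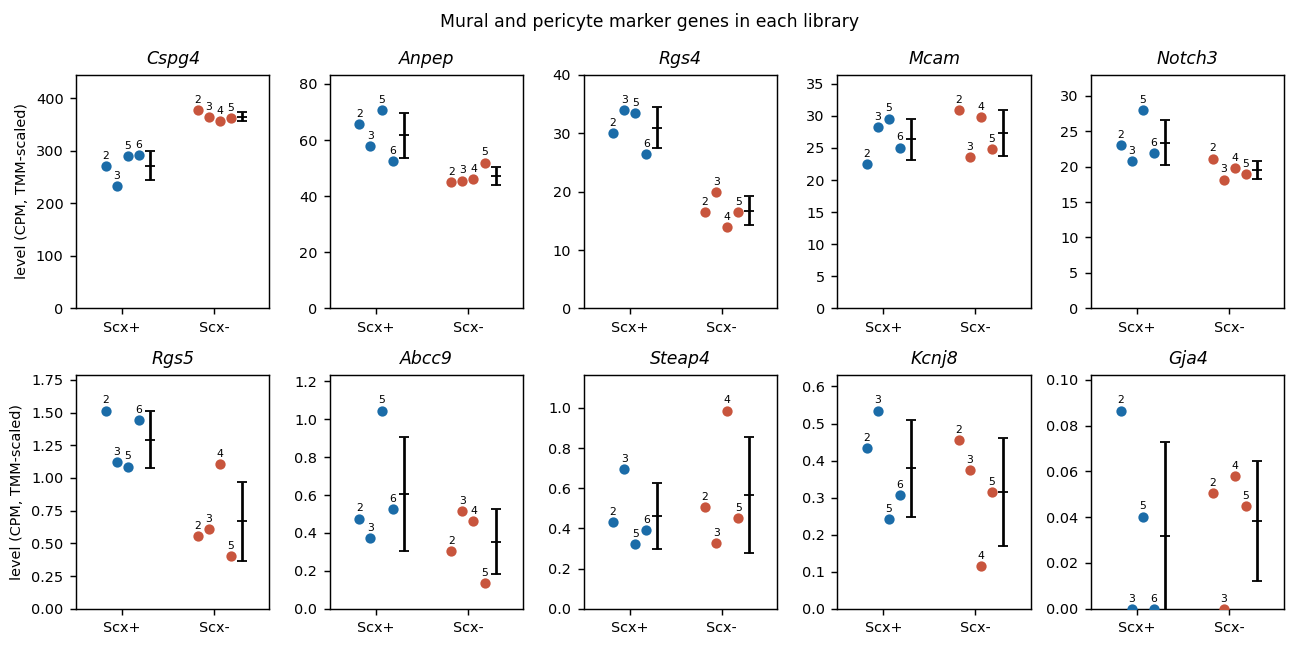
Level of each of the 10 genes in each library (CPM, scaled with TMM factors; each panel has its own vertical axis from 0). Points are libraries labelled with their replicate number, blue for Scx-positive and red for Scx-deleted cells, and the black mark and bar are the mean and SD of 4 libraries (for Gja4 the bar is cut at 0). The groups are separate for Cspg4, Anpep and Rgs4 and overlap for the other 7 genes.

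The 5 genes most like Mcam over the 8 libraries, by Pearson correlation of log2 CPM compared across the 11648 genes whose mean reached 2 CPM, were Myl6 (0.94), E430018J23Rik, Shkbp1, Rps14 and Mrpl14 (0.92 to 0.93). Myl6 encodes a non-muscle myosin light chain, Rps14 a cytosolic ribosomal protein and Mrpl14 a mitochondrial ribosomal protein. None of these 5 was called between the groups, and their log2 changes were between 0.01 and 0.06. The correlations are a description over 8 points that share library preparation and depth.

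Among known ligands of CD146, the direction differed from gene to gene. Lama4, which encodes a laminin chain of vessel basement membranes, stood at 42.1 ± 3.97 CPM with Scx and 23.3 ± 1.90 CPM without it (log2 change -0.86 ± 0.07, SE). Wnt5a fell from 38.8 ± 1.06 to 27.3 ± 0.744 CPM (-0.51 ± 0.05), and the galectin gene Lgals3 rose from 365 ± 16.3 to 530 ± 25.8 CPM (0.54 ± 0.05; SD, n = 4 each). Lgals1 had a log2 difference of 0.11 ± 0.05 (adjusted p = 0.0989). In all, 1 of the 4 ligands tested was higher and 2 were lower (14% and 14.5% over all genes). Without Scx-positive 5 the higher count was 2.

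Rgs4 and Rgs5, which encode regulators that shorten signalling through G protein-coupled receptors, were both lower without Scx. Rgs4 stood at 30.0, 33.9, 33.4 and 26.4 CPM in Scx-positive 2, 3, 5 and 6 and at 16.5, 20.0, 13.9 and 16.5 CPM in Scx-deleted 2, 3, 4 and 5. Every Scx-deleted library was below every Scx-positive one. Rgs4 RNA fell by 45.7%, a log2 change of -0.88 ± 0.10 (SE) with a 95% interval of -1.09 to -0.67 (adjusted p = 8.84e-06). Only 2.13% of the genes tested had a larger absolute log2 change. With each library left out in turn its log2 change stayed between -0.98 and -0.81.

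Rgs5, often used as the defining marker of pericytes, was present at a trace level. Its counts were 35, 21, 27 and 33 in Scx-positive 2, 3, 5 and 6 and 11, 13, 19 and 9 in Scx-deleted 2, 3, 4 and 5, which correspond to 1.52, 1.12, 1.09 and 1.44 CPM and to 0.557, 0.608, 1.10 and 0.405 CPM. Scx-deleted 4 lay just above Scx-positive 5 and below the rest of that group, so the groups overlapped there. The other 3 Scx-deleted libraries were below all 4 Scx-positive ones. The log2 change was -0.99 ± 0.27 (SE), with a 95% interval of -1.56 to -0.42 (adjusted p = 0.0113). It was -1.30 without Scx-deleted 4 and -0.80 without Scx-deleted 5 (adjusted p = 0.00224 and 0.0486). Scx-deleted 4 also had the highest level of Steap4 among the 8 libraries.

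The pair are neighbours on chromosome 1. Rgs5 (ENSMUSG00000026678.10) runs on the plus strand from 169655501 to 169695813 of GRCm38, and Rgs4 (ENSMUSG00000038530.11) on the minus strand from 169741477 to 169747642, with 45.7 kb and 0 protein-coding genes between them. Per kilobase of exon, Rgs4 stood at 9.98 ± 1.13 RPKM and Rgs5 at 0.284 ± 0.0480 RPKM in Scx-positive cells (SD, n = 4 each). The difference between their 2 changes was not tested.

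Of the 10 other RGS genes tested 5 rose and 0 fell by edgeR, against 14% and 14.5% of all genes, with a median log2 change of 0.26. At an unadjusted p under 0.05, 7 were higher and 0 lower, where 2503 of all 13125 genes tested were higher and 2620 lower. DESeq2 and limma-voom each called 0 lower as well. Rgs3 rose from 24.9 ± 0.887 to 37.8 ± 1.90 CPM (log2 change 0.60 ± 0.06), Rgs2 by 0.54 ± 0.12, Rgs16 by 0.27 ± 0.07 and Rgs12 by 0.14 ± 0.05 (SE). The higher count was 3 without Scx-positive 2, without Scx-deleted 2, 4 or 5, and with upper-quartile scaling. Rgs10 was the fifth relative called, at a log2 change of 0.24.

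**Figure D2:**
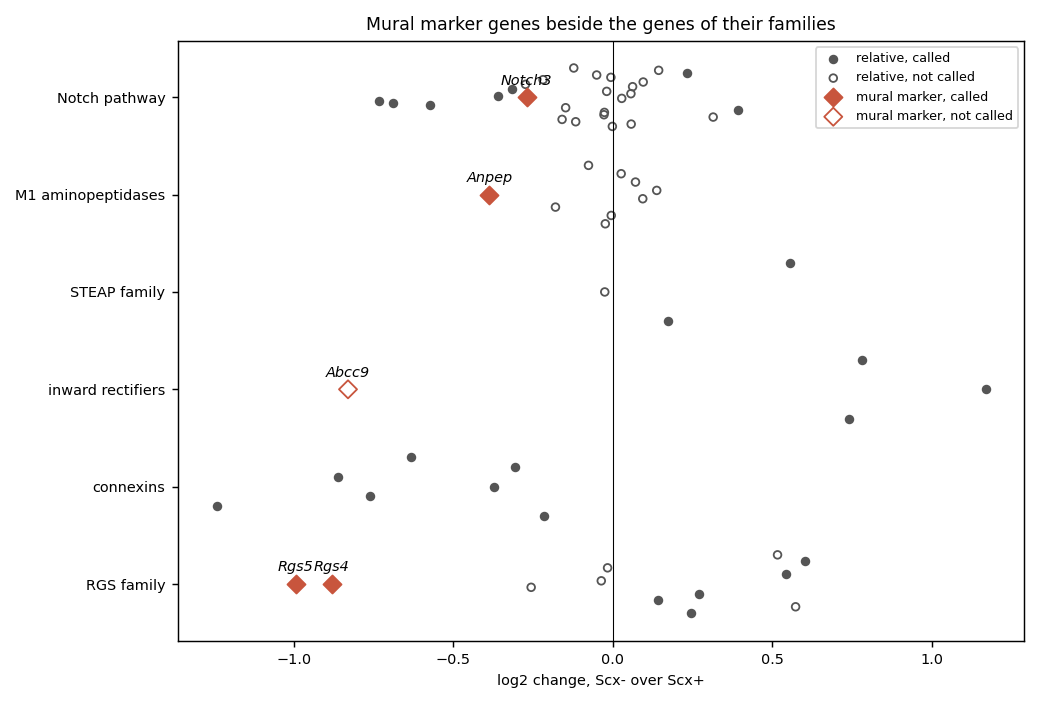
Log2 change (Scx-deleted over Scx-positive, horizontal axis) of tested genes in 6 families or pathways, 1 row each; grey circles are relatives and red diamonds are the mural marker genes, filled where called. Rgs4 and Rgs5 lie left of 0 while the called RGS relatives lie right of it, and all 7 connexins lie left.

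The genes most like Rgs4 over the 8 libraries were Arsj, Tesk2, Adam23, Fat4 and C1qtnf7, each with a Pearson correlation of 0.99 over log2 CPM. All 5 were lower in Scx-deleted cells, with log2 changes from -0.70 for Arsj to -0.34 for Tesk2. Since Rgs4 separates the groups, genes that also separate them correlate with it by that alone.

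Cspg4, which encodes the NG2 proteoglycan of pericytes and glial progenitors, was the most abundant member and the only one called higher. It stood at 271, 232, 290.2 and 292 CPM in Scx-positive 2, 3, 5 and 6 and at 377, 364, 356 and 361 CPM in Scx-deleted 2, 3, 4 and 5. All Scx-deleted libraries were above all Scx-positive ones, and their spread was narrower (8.88 against 27.9 CPM, SD, n = 4 each). The level rose by 34.2%, a log2 change of 0.42 ± 0.06 (SE), with a 95% interval of 0.30 to 0.55 (adjusted p = 7.11e-05). Scx-positive 3 was the lowest library, and without it the change was 0.36. Cspg4 (ENSMUSG00000032911.6) spans 56865033 to 56899870 on the plus strand of chromosome 9.

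Anpep, the gene of aminopeptidase N (CD13), a cell-surface enzyme of pericytes and many fibroblasts, fell modestly. The Scx-positive libraries 2, 3, 5 and 6 held 65.6, 57.8, 70.6 and 52.4 CPM, while Scx-deleted 2, 3, 4 and 5 held 45.0, 45.5, 46.2 and 52.0 CPM. The groups did not overlap, although Scx-deleted 5 came close to Scx-positive 6. Anpep fell by 23.5%, a log2 change of -0.39 ± 0.08 (SE; 95% interval -0.56 to -0.22; adjusted p = 0.00185). Of the 8 other M1 aminopeptidases tested, 0 were called in either direction by edgeR, DESeq2 or limma-voom. Over all genes tested, edgeR called 28.5%. At an unadjusted p under 0.05, 1 was higher and 1 lower, beside 2503 higher and 2620 lower among all 13125 genes tested. The lower count was 1 without Scx-positive 5, without Scx-deleted 3, with upper-quartile scaling and with no filter on low counts. Enpep, a further pericyte marker in that family, stood at 1.97 ± 0.192 and 1.96 ± 0.396 CPM. Anpep (ENSMUSG00000039062.15) lies on the minus strand of chromosome 7 from 79821803 to 79861059.

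Notch3, the Notch receptor of mural cells, was called lower by a small margin. Its values were 23.0, 20.7, 27.9 and 21.9 CPM in Scx-positive 2, 3, 5 and 6 and 21.1, 18.2, 19.7 and 18.9 CPM in Scx-deleted 2, 3, 4 and 5. Scx-deleted 2 lay above Scx-positive 3, and Scx-positive 5 was the highest of the 8. The log2 change was -0.27 ± 0.09 (SE; 95% interval -0.46 to -0.08; adjusted p = 0.0306). The call ended without Scx-positive 2 (adjusted p = 0.0584) or 5 (0.0606) and without Scx-deleted 3 (0.0903), 4 (0.0614) or 5 (0.0850). Without Scx-positive 5 the log2 change was -0.17. Notch3 (ENSMUSG00000038146.8, minus strand of chromosome 17, 32120820 to 32166852) shares 488 of its 8089 exonic bases with Gm17276 on the other strand, and the sources used here do not say whether counting used strand.

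Of 26 other Notch pathway genes tested 5 fell and 2 rose, with a median log2 change of -0.03, where 14.5% of all genes were lower and 14% higher. Jag1, a ligand of Notch3, fell from 49.5 ± 0.964 to 30.7 ± 2.51 CPM (log2 change -0.69 ± 0.06, SE), and its groups did not overlap. Lfng, which modifies Notch receptors with sugar, changed by -0.73 ± 0.14 and the coactivator gene Maml2 by -0.36 ± 0.05, while Dtx4 rose by 0.39 ± 0.08. Notch1 changed by -0.32 on the log2 scale and Hey2, a Notch target, by -0.57, while Hes1 had a difference of -0.15 ± 0.06 (adjusted p = 0.100) and Notch2 of 0.06 ± 0.04. The lower count was 3 without Scx-positive 6 or Scx-deleted 3, and 8 with upper-quartile scaling.

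**Figure D3:**
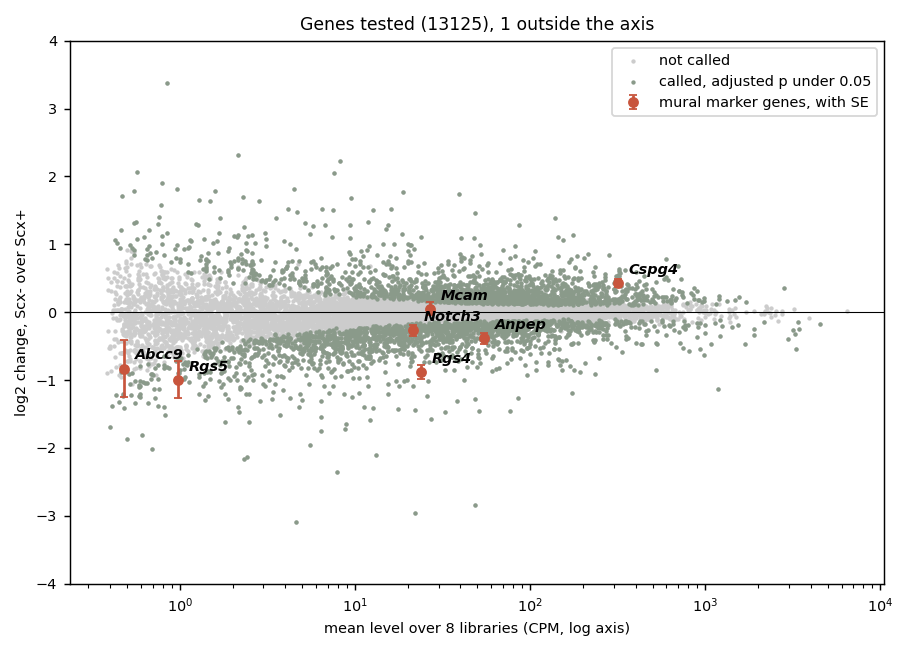
Log2 change (Scx-deleted over Scx-positive) against mean level on a log axis for all 13125 genes tested, with the 7 tested mural marker genes in red and their SE as bars. Cspg4 lies above 0, Mcam at 0.05, and Notch3, Anpep, Rgs4, Rgs5 and the uncalled Abcc9 below 0.

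Kcnj8 and Abcc9 encode the pore and the regulatory subunit of the ATP-sensitive potassium channel of pericytes, and both were near the detection limit. Kcnj8 had 10, 10, 6 and 7 counts in Scx-positive 2, 3, 5 and 6 and 9, 8, 2 and 7 in Scx-deleted 2, 3, 4 and 5, which was too low for the filter on low counts. Its summed level in Scx-deleted cells was 0.875 of that in Scx-positive cells, with exact 95% bounds of 0.503 and 1.51 for counting error alone. Abcc9 had 11, 7, 26 and 12 counts in Scx-positive 2, 3, 5 and 6 and 6, 11, 8 and 3 in Scx-deleted 2, 3, 4 and 5. Scx-positive 5 held nearly as many Abcc9 counts as the other 3 Scx-positive libraries together, and the groups overlapped in the rest. The log2 change was -0.83 ± 0.41 (SE; 95% interval -1.71 to 0.05; adjusted p = 0.151), and it was -0.40 without Scx-positive 5, -0.53 without Scx-deleted 5 and -1.10 without Scx-deleted 3. Abcc9 has 158 exonic bases in common with 5330439B14Rik on the other strand.

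Kcnj8 (ENSMUSG00000030247.9, 142564837 to 142571614) and Abcc9 (ENSMUSG00000030249.15, 142587862 to 142702315) are also neighbours, on the minus strand of chromosome 6 with 16.2 kb and 0 protein-coding genes between them. The other channel of this kind was not detectable at this depth: Kcnj11 had 2 counts and its partner Abcc8 1 count over the 8 libraries. Among 15 listed inward rectifiers and partners 3 could be tested, and all 3 were higher in Scx-deleted cells, against 14% of all genes tested. Kcnj15 rose from 15.7 ± 1.99 to 26.3 ± 2.21 CPM (log2 change 0.74 ± 0.09), Kcnj2 from 1.90 ± 0.758 to 4.22 ± 0.637 CPM (1.17 ± 0.22) and Kcnj4 from 1.66 ± 0.485 to 2.85 ± 0.467 CPM (0.78 ± 0.19; SD and SE, n = 4 each). As all 3 were called higher, none could be lower by edgeR, adjusted or not, and DESeq2 and limma-voom also called 0 lower. Only Kcnj15 is left when 5 CPM in 4 libraries is required.

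Steap4, a metalloreductase gene, and Gja4, which encodes connexin 37 of vessel walls, also failed the filter. Steap4 (ENSMUSG00000012428.9) lies on the plus strand of chromosome 5 from 7960457 to 7982213, and Gja4 (ENSMUSG00000050234.7) on the minus strand of chromosome 4 from 127311421 to 127314039. Steap4 had 10, 13, 8 and 9 counts in Scx-positive 2, 3, 5 and 6 and 10, 7, 17 and 10 in Scx-deleted 2, 3, 4 and 5. Scx-deleted 4 was the highest, at 0.987 CPM, and the other libraries of both groups overlapped. The ratio of the summed levels was 1.22, with an exact 95% interval of 0.778 to 1.92. Its relative Steap3 rose from 29.5 ± 2.39 to 43.4 ± 1.96 CPM (log2 change 0.55 ± 0.06), Steap1 rose by 0.17 ± 0.06 (adjusted p = 0.0354) and Steap2 had a difference of -0.03. Steap1 lost its call without Scx-positive 2 or 3, without Scx-deleted 3, 4 or 5, with upper-quartile scaling and with no filter on low counts. A block for the replicate number on all 8 libraries ended it too. In all, 2 of the 3 relatives tested were higher and 0 lower by edgeR, against 14% and 14.5% of all genes tested. With numbers 2, 3 and 5 alone, blocked or not, the higher count of the family was 1.

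Gja4 had 2, 0, 1 and 0 counts in Scx-positive 2, 3, 5 and 6 and 1, 0, 1 and 1 in Scx-deleted 2, 3, 4 and 5. No library reached the limit that a count of 0 allows (3 counts, or 0.121 to 0.174 CPM by library), so no difference was detectable at this depth. The vascular connexin gene Gja5 had 0 counts in all 8 libraries. Every one of the 7 connexin genes that could be tested fell, against 14.5% of all genes, with a median log2 change of -0.63. The lower count was 6 without Scx-positive 2 or 3 or Scx-deleted 4, and 5 without Scx-deleted 5. Gja1, the gene of connexin 43 and the most abundant connexin here, fell from 406 ± 15.7 to 349.5 ± 4.54 CPM (log2 change -0.22 ± 0.04). Gjb5 changed by -0.86 ± 0.10 and Gjc1 by -0.31 ± 0.07 (SE). As all 7 were called lower, none could be higher by edgeR, adjusted or not, and DESeq2 and limma-voom also called 0 connexins higher.

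**Figure D4:**
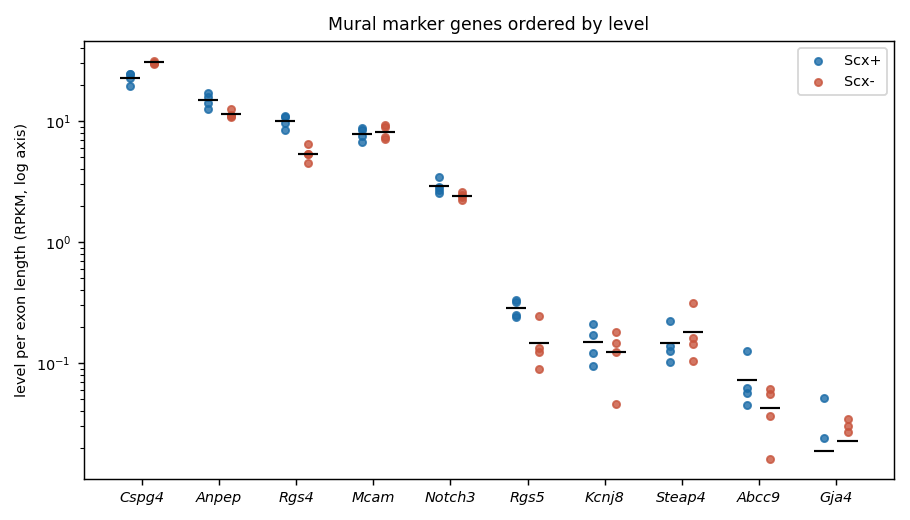
Level per kilobase of exon (RPKM, log axis) of the 10 genes, ordered by the Scx-positive mean; points are libraries, black lines are means of 4, and libraries with 0 counts of Gja4 are not drawn. The means fall from 22.8 and 30.6 RPKM for Cspg4 to 0.0188 and 0.0228 RPKM for Gja4, and Rgs4 and Mcam change places between the groups.

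Compared per exon length, the members fell into an abundant and a trace set. In Scx-positive cells Cspg4 came first at 22.8 ± 2.34 RPKM, followed by Anpep (14.9 ± 1.96), Rgs4 (9.98 ± 1.13), Mcam (7.86 ± 0.957) and Notch3 (2.89 ± 0.393; SD, n = 4 each). Rgs5 (0.284 ± 0.0480), Kcnj8 (0.149 ± 0.0514), Steap4 (0.146 ± 0.0517), Abcc9 (0.0723 ± 0.0359) and Gja4 (0.0188 ± 0.0245) followed. Rgs4 and Mcam overlapped across Scx-positive libraries, as did Kcnj8 with Steap4, Steap4 with Abcc9 and Abcc9 with Gja4. In Scx-deleted cells Cspg4 was at 30.6 ± 0.744 RPKM and Anpep at 11.4 ± 0.782, and Mcam (8.15 ± 1.07) was now above Rgs4 (5.39 ± 0.808) without overlap. The order below Notch3 there was Steap4, Rgs5, Kcnj8, Abcc9 and Gja4, and each of these overlapped the next.

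Of the 10 members 7 passed the filter on low counts, and 4 of these were lower and 1 higher, against 14.5% and 14% of all genes tested. The median log2 change of the 7 was -0.39, and 3 of the 7 had groups that did not overlap, against 29.1% of all genes. The filter asked for at least 0.459 CPM in 4 of the 8 libraries. Rgs5 met it in 4 Scx-positive and 3 Scx-deleted libraries and Abcc9 in 3 and 2, while the other 5 met it in all 8. The authors' deposited table gives log2 changes of -0.90 for Rgs4, -1.18 for Rgs5, 0.43 for Cspg4, -0.42 for Anpep and -0.21 for Notch3. The authors' deposited table calls 29.2% of its 14511 genes at an adjusted p under 0.05, and it gives Notch3 an adjusted p of 0.0650, Mcam 0.710 and Abcc9 0.155.

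**Figure D5:**
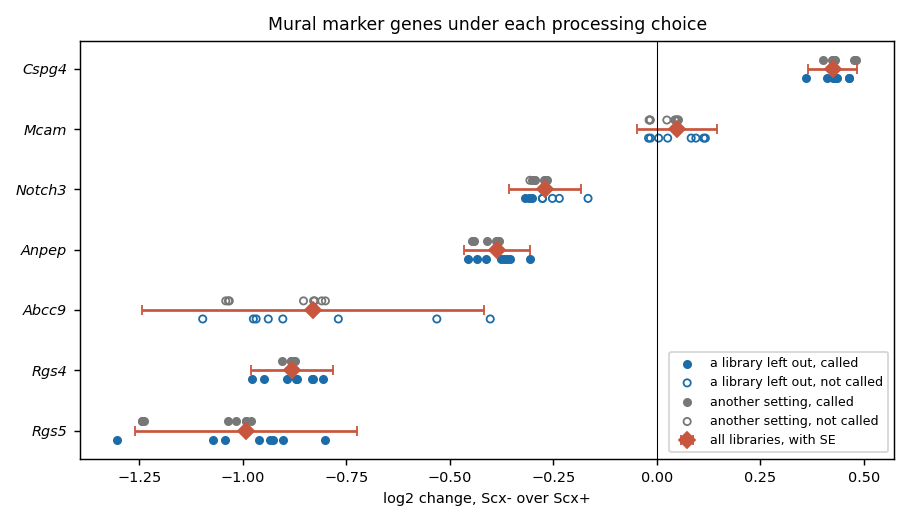
Log2 change (horizontal axis) of the 7 tested genes with all libraries (red diamonds with SE), with each library left out (blue) and with other settings (grey); filled points are called. Rgs4, Rgs5, Anpep and Cspg4 are called under each choice that tested them, Notch3 loses its call in several, and Mcam and Abcc9 are called in none.

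Further mural genes moved in both directions. Of 28 listed genes found among the counts, 20 were tested, and 3 were higher and 6 lower, with a median log2 change of -0.05. The shares over all genes were 14% and 14.5%. Cd248, which encodes endosialin of pericytes and fibroblasts, fell from 672 ± 107 to 374 ± 31.0 CPM (log2 change -0.85 ± 0.09), and the amine oxidase gene Aoc3 changed by -0.87 ± 0.09. Angpt1, the growth factor that mural cells send to endothelium, changed by -0.96 ± 0.12. The laminin-binding integrin gene Itga7 rose by 0.53 ± 0.07 (SE). Desmin (Des), a classical pericyte protein, stood at 1.27 ± 0.0608 and 1.21 ± 0.182 CPM. The capillary pericyte genes Vtn and Higd1b had 4 and 0 counts over the 8 libraries.

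The receptor side of mural recruitment was well expressed. Pdgfrb rose from 428 ± 29.0 to 503 ± 12.0 CPM (log2 change 0.23 ± 0.05; adjusted p = 0.00151), while Pdgfra fell from 113 ± 1.90 to 78.3 ± 6.62 CPM (-0.53 ± 0.05). Angpt2 rose from 1.97 ± 0.445 to 4.21 ± 0.884 CPM (1.08 ± 0.18) and Tek, the angiopoietin receptor gene, fell from 74.3 ± 7.43 to 46.6 ± 3.55 CPM (-0.67 ± 0.07; SD and SE, n = 4 each). In all, 2 of 9 genes for PDGF and angiopoietin signals were higher and 5 lower (14% and 14.5% over all genes), with a median log2 change of -0.29.

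Of 18 smooth muscle contractile genes tested 4 fell and 0 rose by edgeR, beside 14.5% and 14% of all genes. At an unadjusted p under 0.05, 8 were lower and 0 higher, beside 2620 lower and 2503 higher among all 13125 genes tested. DESeq2 and limma-voom called 0 higher. Synpo2 changed by -0.71 ± 0.11, Sncg by -0.50 ± 0.15, the calponin gene Cnn1 by -0.28 ± 0.09 and Smtn by -0.22 ± 0.06 (SE). Acta2, at 1447 ± 133 and 1308 ± 70.2 CPM, had a difference of -0.15 ± 0.06 that did not pass (adjusted p = 0.0818). The lower count was 7 without Scx-positive 2 and with upper-quartile scaling, and 2 without Scx-deleted 3 or 5.

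Markers that are read beside Mcam on tendon stem and progenitor cells were also mixed. Of 13 tested 2 were higher and 5 lower (14% and 14.5% over all genes), with a median log2 change of -0.10. Cd44, the hyaluronan receptor gene, rose from 751 ± 54.0 to 966 ± 25.4 CPM (log2 change 0.36 ± 0.05), while the adhesion gene Alcam changed by -0.65 ± 0.06, Pdgfra by -0.53 ± 0.05 and Cd34 by -0.25 ± 0.04 (SE). Thy1 (CD90) stood at 241 ± 12.8 and 238 ± 10.7 CPM, with a 95% interval for its log2 change of -0.12 to 0.08. The higher count was 1 without Scx-positive 2 or 6 and without Scx-deleted 2, 3 or 4. Of the tendon fibroblast list 7 of 9 genes were lower, against 14.5% of all genes. Scx, the deleted gene, is among the 7, and its fall was set by the design.

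Lists of genes that mark other cell types were read in the same way, beside 14% higher and 14.5% lower over all genes tested. At an unadjusted p under 0.05, 2503 of all 13125 genes tested were higher and 2620 lower. Of 16 endothelial markers 5 could be tested, and 3 were higher and 1 lower. The defining genes Cldn5 and Robo4 had 0 counts and Pecam1 36 counts over all libraries. The summed level of the list was 73.9 to 92.5 CPM in Scx-positive and 58.2 to 61.7 CPM in Scx-deleted libraries, most of it Tek. Egfl7 rose by 0.50, Flt1 by 0.55 and Kdr by 0.48 on the log2 scale, and the higher count was 1 without Scx-deleted 4. Among 12 leukocyte markers 4 were tested and 2 higher (Cd68 at 0.59 and Csf1r at 0.70), with 0 lower by edgeR, DESeq2 and limma-voom and at an unadjusted p under 0.05; the list summed to 20.2 to 23.0 CPM and 23.5 to 26.9 CPM, C1qc had 0 counts and Ptprc, the gene of CD45, 8 counts. Of 8 Schwann and glial markers 2 were lower (Ncam1 at -0.44 and S100b at -0.51), with sums of 143 to 161 and 121 to 144 CPM. Of 4 tested skeletal muscle markers Acta1 was lower (-0.28; not called without Scx-positive 6 or Scx-deleted 3 or 5), with sums of 35.7 to 42.4 and 28.2 to 37.6 CPM and 0 counts for Myod1, Myf5 and Pax7. The part of these other cell types in the differences of the mural genes was not tested.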

How the data were processed

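RNA of cultured cells was sequenced in 8 libraries, 4 of each genotype. STAR, DESeq2, FastQC and mm10 are named without roles in the submitters' processing notes, while the sources used here name no counter, annotation or strand setting. The authors deposited raw read counts per gene for each library. The authors' deposited table of their own comparison also holds a mean signal (normalised counts), log2 changes, a test score and p-values, and was used only for values named as theirs. Counting classes that name no gene (no feature, 8.30% and 7.73% by group, and ambiguous) stayed out of library sizes.

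Counts were fitted with edgeR 4.0.16 (R 4.3.3, limma 3.58.1): a filter on low counts (minimum 10, total 15), TMM factors and the quasi-likelihood test, with Benjamini-Hochberg adjustment at 0.05. Alternatives were other scalings and filters, DESeq2 1.42.0, limma-voom, a replicate block and leaving out each library. The fit was tested on simulated data first. It recovered 61.2%, 83.6% and 95.5% of genes planted with changes of 1.25, 1.5 and 2 fold. Of its calls there, 9.09% were false, above the 0.05 aimed at. Counting intervals cover counting error only. Symbols of 98.0% of genes matched GENCODE release 21 (GRCm38), which gave positions and exon lengths.

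The 10 genes and the gene lists were chosen with earlier results of these data known. All 10 are named, with up to 4 called genes of smallest p per list, Scx, the 5 genes most like Mcam and like Rgs4, and relatives, receptors and ligands. Other genes at or near 0 counts, and Acta2, Des, Enpep and Thy1, were named for their role. One gene that this rule names is not reported here.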

Additional observations from a re-analysis of the deposited data

Results flagged for a closer look

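In 112 groups of 4 libraries (56 named genes), 9 held a library whose gap to its nearest neighbour exceeded Dixon's 95% critical share of the range of its group, where chance gives about 1 in 20. Among the 10 mural genes it was Anpep, at 52.0 CPM in Scx-deleted 5 against 45.0 to 46.2 CPM in the other 3. Among relatives and partners, Rgs12 was at 60.2 CPM in Scx-deleted 2 (54.3 to 55.2 in the others), Steap3 at 33.0 CPM in Scx-positive 5 (28.0 to 28.7), Kcnj4 at 2.38 CPM in Scx-positive 2 (1.35 to 1.45) and Maml2 at 78.8 CPM in Scx-deleted 4 (87.5 to 88.6). Among other lists, Angpt1 was at 2.25 CPM in Scx-deleted 5 (2.73 to 2.81), Alcam at 17.4 CPM in Scx-deleted 2 (16.7 in each of the others), Tnmd at 3.04 CPM in Scx-deleted 2 (2.44 to 2.53) and Egfl7 at 5.11 CPM in Scx-deleted 4 (4.16 to 4.20).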

How the results depend on the processing

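Rgs4, Rgs5, Anpep and Cspg4 kept their direction and their call under each alternative that tested them (Rgs5 failed the filter of 5 CPM in 4 libraries). With each library left out in turn, the log2 change ran from -0.98 to -0.81 for Rgs4, from -1.30 to -0.80 for Rgs5, from -0.46 to -0.31 for Anpep, from 0.36 to 0.46 for Cspg4, from -0.32 to -0.17 for Notch3, from -1.10 to -0.40 for Abcc9 and from -0.02 to 0.12 for Mcam. Notch3 lost its call in 6 of 17 alternatives, 5 of them with 1 library left out. Mcam was called in none of its 17 (adjusted p 0.310 to 0.983), and its sign turned in 5, without Scx-positive 2 (-0.0199), without Scx-deleted 2 (-0.0152), with the replicate block on all 8 libraries (-0.0186), and for numbers 2, 3 and 5 only, with the block (-0.0156) and without it (-0.0169). The cause was not tested. The sources used here do not say whether the replicate numbers pair the libraries. Residuals of same-numbered libraries correlated at -0.06, 0.16 and 0.06 for numbers 2, 3 and 5. Scx-positive 2 and 5 did not correlate best with their own number, while Scx-positive 3 did. So few correlations cannot tell whether the libraries are paired. With the replicate block, 1561 genes were higher and 1676 lower, the log2 change of Rgs5 was -1.24 and no call among the 10 genes changed, while Steap1 lost its call (adjusted p = 0.143) and 6 of the 7 connexins were called lower.

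Over all genes, 1842 were higher and 1902 lower. Numbers 2, 3 and 5 only, which are fewer samples, gave 1585 higher and 1616 lower with the replicate block. Without the block, an alternative chosen after seeing the data, they gave 1289 and 1239. With each library left out, 1447 to 2409 were higher and 1427 to 2310 lower, the highest counts without Scx-positive 5. Upper-quartile scaling gave 1539 and 2288. Depth limits Kcnj8, Abcc9, Steap4 and Gja4.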

Other observations

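Heyl, a Notch target used as a mural marker, was too low to be tested and was chosen after its values were seen. Of its 84 counts, 48 came from Scx-deleted 4, where it stood at 2.79 CPM, while the other 7 libraries held 0.131 to 0.374 CPM. Scx-deleted 4 is also the library with the highest Steap4 (0.987 CPM), the highest Rgs5 among Scx-deleted libraries (1.10 CPM) and the lowest Rgs4 (13.9 CPM). The same library had the lowest Kcnj8 of all (2 counts, 0.116 CPM) and the lowest Cspg4 among Scx-deleted libraries (356 CPM). Its mural genes thus differed in direction, and most of these values rest on few counts.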
